A study of Mus musculus with 24 samples.

Results

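The genes described here are 9 mouse genes that handle heme, iron and zinc: Hmox1, Mt1, Mt2, Fth1, Slc40a1, Tfrc, Hamp, Cp and Slc11a1. They were chosen by symbol and found through the RefSeq accessions that the array gives for its probes, and all 9 were among the 15875 genes tested. Their messenger RNA was measured by 13 probes, with 4 for Cp, 2 for Tfrc and 1 for each of the other genes. The tissue was the infarcted area at risk of the anterior heart wall of male C57BL6/J mice, in which the left anterior descending coronary artery had been closed for 45 min and then reopened. The IGF1 groups were sampled after 24, 48 or 168 h of reperfusion. They had been given insulin-like growth factor 1 (recombinant IGF1), a hormone of growth and survival, as a subcutaneous dose of 40 ng/g when flow returned and by osmotic pump at 1 µg/g each day over the first 3 days. The vehicle groups, sampled at the same 3 times, had received carrier solution (PBS, 0.1% BSA). Each of the 6 groups had 4 one-colour Agilent arrays, 24 in all. The design text of the series calls the controls sham-operated, but each vehicle sample is labelled as ischemic for 45 min, and these labels were used. By them, no heart without infarction enters any comparison. The 24 h hearts, and the 48 h hearts, were taken while the pump period was still running, and the 168 h hearts after it.

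Heme set free from red blood cells and dying muscle is cut open by heme oxygenase 1, the product of Hmox1, which yields biliverdin, carbon monoxide and ferrous iron. Iron enters cells through the transferrin receptor Tfrc, is stored in ferritin, of which Fth1 encodes the heavy chain, and leaves through ferroportin, the product of Slc40a1, helped by the ferroxidase ceruloplasmin (Cp). Hepcidin, the peptide encoded by Hamp, makes cells internalise and degrade ferroportin, and Slc11a1 (Nramp1) carries divalent metal out of the phagosomes of macrophages. Metallothioneins 1 and 2 (Mt1 and Mt2) are small cysteine-rich proteins that bind zinc and copper, and their genes respond to metals, glucocorticoids and oxidative stress.

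Stretches before annotated starts of Mt1 and Mt2 are shown because the levels of both genes ran closely together over the arrays. Both are also textbook targets of the zinc-sensing factor MTF-1, which binds metal response elements. The transcript starts that the RefSeq promoter windows (GRCm38.p6) use lie 6471 bases apart on the plus strand of chromosome 8. The letters are the 250 bases before each of those starts, chr8:94178839-94179088 for Mt1 and chr8:94172368-94172617 for Mt2, read 5′ to 3′, with matches to the metal response core (TGCACNC or TGCGCNC, on either strand) in capitals.
Mt1: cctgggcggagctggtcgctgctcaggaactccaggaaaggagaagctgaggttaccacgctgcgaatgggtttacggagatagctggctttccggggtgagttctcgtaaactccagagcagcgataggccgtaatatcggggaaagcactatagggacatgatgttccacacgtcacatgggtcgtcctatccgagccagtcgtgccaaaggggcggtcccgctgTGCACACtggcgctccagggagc
Mt2: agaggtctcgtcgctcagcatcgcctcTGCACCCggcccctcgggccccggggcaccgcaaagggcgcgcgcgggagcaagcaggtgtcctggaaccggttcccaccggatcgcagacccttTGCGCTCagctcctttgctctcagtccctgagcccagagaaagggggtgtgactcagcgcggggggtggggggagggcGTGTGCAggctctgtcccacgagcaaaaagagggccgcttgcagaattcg
The RefSeq gene record of Mt1 begins earlier, at 94178883, so most of its stretch lies inside the annotated gene. The Mt1 stretch held 1 match and the Mt2 stretch 3. In the window of 300 bases that also takes in the first 50 bases after the start, Mt1 had 3 matches and Mt2 had 4. The counts thus depend on where a stretch ends, and 1 against 3 is not a comparison of whole promoters. Of all 32851 RefSeq windows of that length, 25.7% held at least 1 match, 1.97% at least 3 and 0.517% at least 4. Of the other members with a window in the table, Tfrc had 2 matches in 1 of its 2 windows, and Fth1, Hamp, Cp and Slc11a1 had 0. The antioxidant response core TGACNNNGC, the letters bound by the oxidant-sensing factor Nrf2, was found once in the Mt2 window and in 12.4% of all windows. A STAT core (TTCNNNGAA) was found once in the Hamp window, on chromosome 7, and in 8.3% of all windows. In all, 7 of the 9 members had a window, Hmox1 and Slc40a1 being the exceptions, and a match describes letters only.

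Levels are log2 probe signals, background-corrected and set against the array's own 75th percentile, so that 1 unit is a 2-fold difference and a level has meaning only for the same probe on other arrays. Spots well above background made up 52.8 to 62.9% per array, and 0 were saturated. Arrays of 1 group correlated with each other at r of 0.983 to 0.993 over the genes. The cardiomyocyte markers, 8 of 8, were above background on every array, as the labelled tissue would have. A gene was called where limma's adjusted p was under 0.05, from 1 fit over all 24 arrays with Benjamini-Hochberg adjustment over the 15875 genes. Errors are SD over 4 arrays for levels and standard errors (SE) of the fit for differences. The labels do not say that the arrays of a group came from separate animals, and the spread behind each p-value, which is that between these samples, may be technical. In whole tissue, fewer cells of a type and less RNA per cell cannot be told apart.

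**Figure D1:**
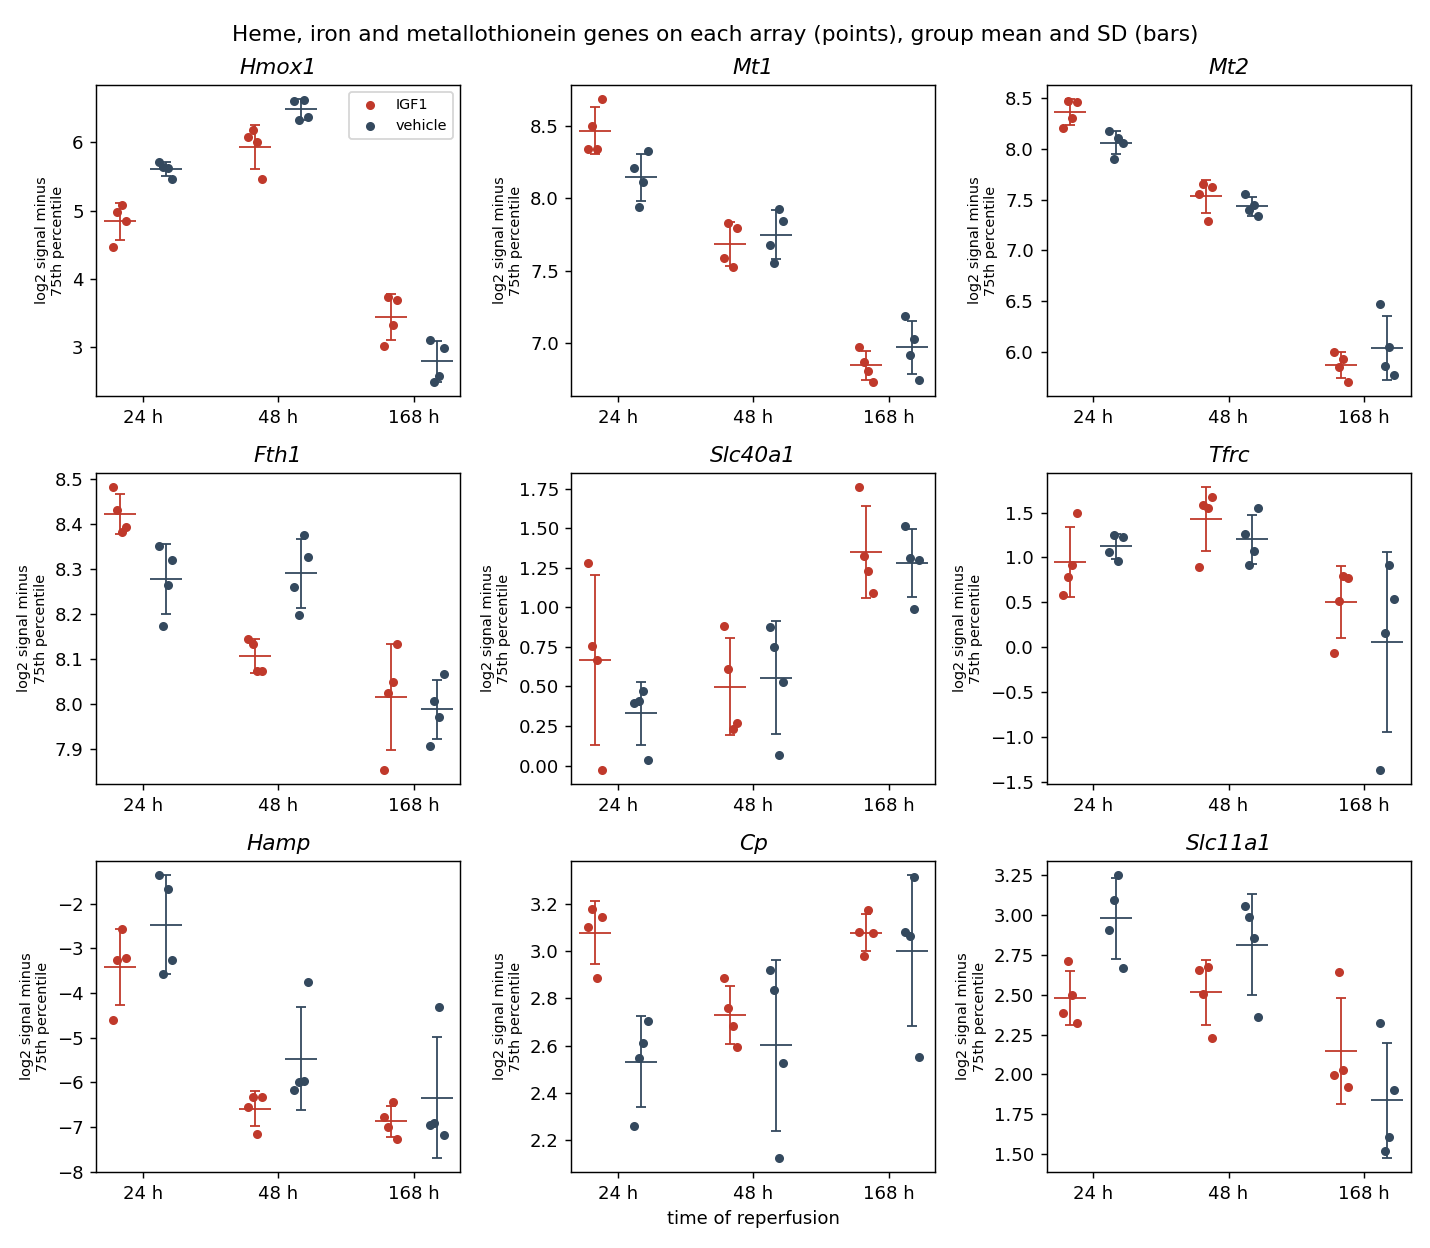
Level of each gene (log2 signal minus the array's 75th percentile, 1 panel per gene with its own scale) against reperfusion time, with IGF1 arrays left of vehicle arrays. Points are single arrays and bars the group mean and SD (n = 4). Hmox1 peaks at 48 h in both treatments, Mt1 and Mt2 step down with time, and Hamp lies highest at 24 h.

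Treatment with IGF1 went with a lower Hmox1 level and a higher Cp level at 24 h, and these were the 2 of the 9 genes called at that time. The Hmox1 call held without any single array, and the Cp call did not (given below). Across all genes 16% were called (2542, or 1203 without IGF1 replicate 1 and 1319 without vehicle replicate 2 at 24 h), so a count of 2 in 9 says nothing particular about these genes. The groups of arrays did not overlap for 5 of the 9 genes (Hmox1, Mt1, Mt2, Fth1 and Cp), against 18.4% of all genes. At an unadjusted p under 0.05, 6 of the 9 passed, against 30.2% of all genes. The median difference over the 9 genes was 0.14, against 0.01 over all genes. At 48 h 0 of the 9 genes were called by limma, as were 0.0126% of all genes, and 2 of the 9 passed at an unadjusted p under 0.05, against 8.88% of all genes. The arrays did not overlap at 48 h for Hmox1 and Fth1, against 5.89% of all genes. Hamp is left out of that count, since its probe was above background on 0 IGF1 arrays and 1 vehicle array at 48 h. At 168 h limma called 0 of the 9 and 0% of all genes, and 1 of the 9, Hmox1, passed at an unadjusted p under 0.05, against 3.87% of all genes. Median differences over the 9 genes were -0.06 at 48 h and 0.07 at 168 h.

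**Figure D2:**
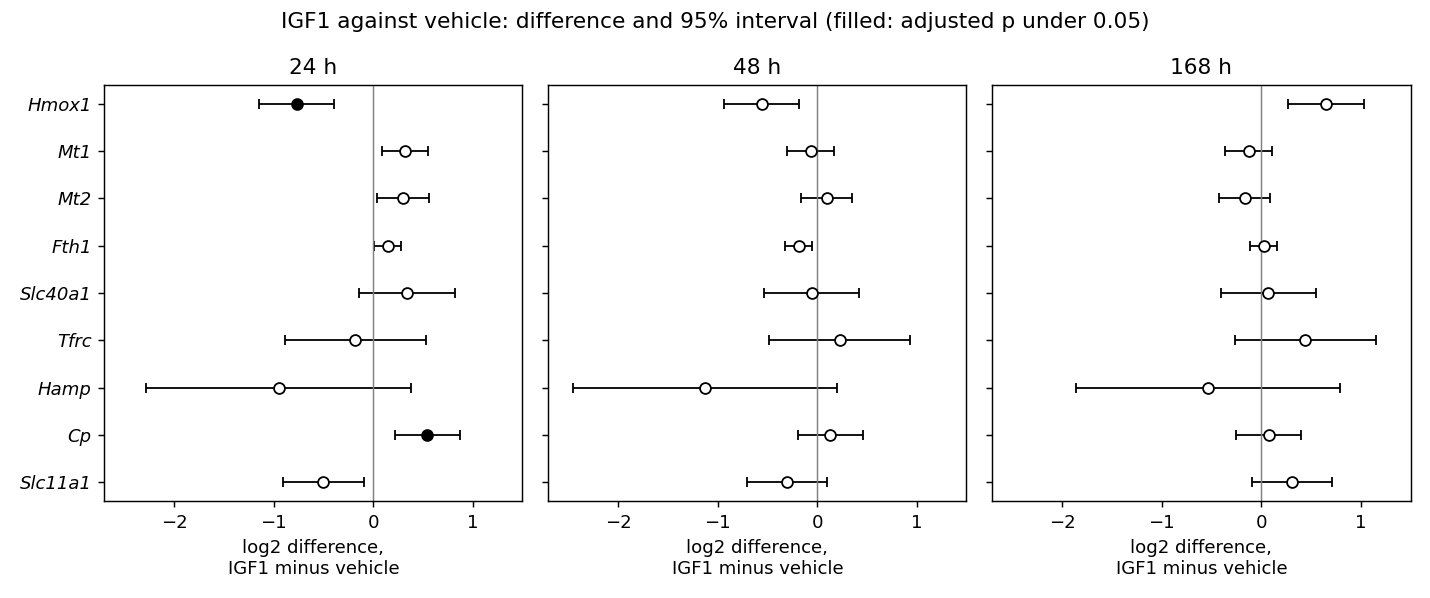
Difference IGF1 minus vehicle in log2 units for each gene (down the page) at 24, 48 and 168 h, with its 95% confidence interval. Filled points passed an adjusted p of 0.05, which only Hmox1 (-0.77) and Cp (0.54) did, both at 24 h.

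Hmox1, the enzyme that opens heme, stood at 4.46, 4.98, 5.08 and 4.84 on the 4 IGF1 arrays at 24 h, and at 5.71, 5.64, 5.63 and 5.46 on the 4 vehicle arrays. Every IGF1 array lay below every vehicle array. The difference was -0.77 (SE 0.18), a level 1.70-fold lower with IGF1, with an adjusted p of 0.00811. One IGF1 and one vehicle array shared each of the 4 slides at this time, and the IGF1 array was the lower on 4 of 4 slides, with differences of -1.25 to -0.55.

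At 48 h the IGF1 arrays gave Hmox1 levels of 6.08, 6.18, 6.0 and 5.46, and the vehicle arrays 6.61, 6.33, 6.61 and 6.38. The groups again did not overlap, but the difference of -0.55 (SE 0.18) was not called (adjusted p = 0.373). At 168 h the levels were 3.02, 3.74, 3.32 and 3.69 with IGF1 and 3.11, 2.49, 2.58 and 2.98 with vehicle. Here the mean was higher with IGF1, by 0.65 (SE 0.18), the groups overlapped at 1 array each, and the difference was not called (adjusted p = 0.683). The IGF1 mean was the lower on both slides that held both treatments at 48 h and the higher on both such slides at 168 h.

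Whether the IGF1 difference in Hmox1 depended on time was tested directly. The difference at 168 h minus that at 24 h was 1.42 (SE 0.25, adjusted p = 0.00336), a test that 11.1% of all genes passed. The difference at 48 h minus that at 24 h was 0.21 (SE 0.25, adjusted p = 0.699) and was not called. Nor was the difference at 168 h minus that at 48 h (1.21, SE 0.25, adjusted p = 0.160). The F-test over the 3 times gave Hmox1 an adjusted p of 0.00796, and it was the only 1 of the 9 genes past that test, which 5.6% of all genes passed. From the highest mean to the lowest, the 6 groups ran vehicle 48 h, IGF1 48 h, vehicle 24 h, IGF1 24 h, IGF1 168 h and vehicle 168 h. Among neighbours in that order, IGF1 48 h overlapped vehicle 24 h and IGF1 168 h overlapped vehicle 168 h, and the other neighbours did not overlap.

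Macrophages are a cell type that expresses Hmox1 and Slc11a1. Of 11 macrophage markers 5 were called lower and 0 higher with IGF1 at 24 h, beside 16% of all genes called in either direction, and the mean level of the list ranged from 1.51 to 1.93 over the IGF1 arrays and from 1.92 to 2.11 over the vehicle arrays, which overlap. Of 7 measured neutrophil markers 0 were called, and of 5 inflammatory monocyte markers 1 was called higher and 1 lower. Of the 7 markers of dividing cells 7 were called lower, with a mean level of -0.38 to 0.06 with IGF1 and -0.20 to 1.45 with vehicle, which overlap. Of 6 markers of T, NK and B cells 5 were called lower, with a median difference of -1.36 and a mean level of -3.08 to -2.40 with IGF1 and -1.60 to -1.17 with vehicle. Of the 8 measured red blood cell genes 0 were called, with a mean level of 1.32 to 2.15 with IGF1 and 1.58 to 3.08 with vehicle. The part of these cell types in the Hmox1 difference was not tested.

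Cp stood at 3.10, 3.18, 2.88 and 3.15 on the IGF1 arrays at 24 h and at 2.26, 2.55, 2.61 and 2.71 on the vehicle arrays. The groups did not overlap, and the level was 1.46-fold higher with IGF1 (difference 0.54, SE 0.16, adjusted p = 0.0230). The call was lost without any of 4 single arrays, with adjusted p of 0.0744 and 0.0535 without vehicle replicate 1 or 2 and 0.0631 and 0.0522 without IGF1 replicate 1 or 2. The difference held its sign on all 4 slides, from 0.27 to 0.84. At 48 h it was 0.13 and at 168 h 0.08, and neither was called (adjusted p = 0.852 and 1.00).

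The 4 Cp probes carry 3 transcript accessions, and the values above come from the brightest, A_55_P2111302 (NM_007752). At 24 h each of the 4 probes was higher with IGF1, by 0.54, 0.56, 0.82 and 0.84, and limma called each (adjusted p over the 23406 probes of 0.0263, 0.00368, 0.0119 and 0.00681), as it did 13.5% of all probes. In vehicle hearts at 168 h against 24 h, the probes A_52_P597002 (NM_001276250) and A_55_P2087607 (NM_001276248) differed by 1.67 (SE 0.20) and 1.39 (SE 0.18), while both NM_007752 probes differed by 0.47 (SE 0.16) and 0.43 (SE 0.11). All 4 were called in that comparison, as were 57.8% of all probes. The call of the brightest probe was lost without vehicle replicate 1 at 24 h (adjusted p = 0.0544) or vehicle replicate 3 at 168 h (adjusted p = 0.0588). In IGF1 hearts the same 2 times differed by 0.61 (SE 0.20) on the NM_001276250 probe, which was called (adjusted p = 0.0137), and by 0.32, 0.00 and -0.13 on the other probes, which were not, against 56.6% of all probes. Whether the probes differ from each other in their change was not tested.

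**Figure D3:**
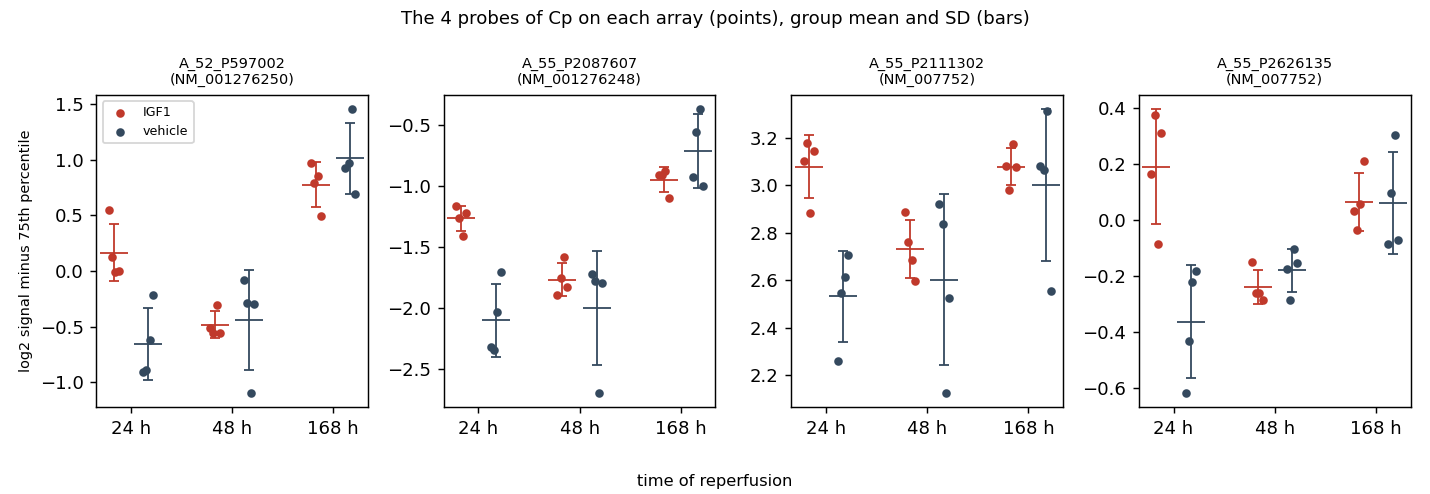
Level of each of the 4 Cp probes (log2 signal minus the array's 75th percentile, own scale per panel) against reperfusion time, IGF1 arrays left of vehicle arrays, with group mean and SD (n = 4). All 4 probes lie higher with IGF1 at 24 h, and the left pair of probes has the larger differences between 48 and 168 h.

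The levels of Mt1 and Mt2 moved together, with a Pearson r of 0.977 over the 24 arrays, which share 6 groups. At 24 h Mt1 stood at 8.34, 8.50, 8.34 and 8.69 with IGF1 and at 8.21, 7.94, 8.11 and 8.33 with vehicle. Mt2 stood at 8.20, 8.47, 8.31 and 8.47 with IGF1 and at 8.18, 7.90, 8.11 and 8.06 with vehicle. For both genes every IGF1 array lay above every vehicle array, and on all 4 slides the IGF1 array was the higher. The differences of 0.32 (SE 0.11) for Mt1 and 0.30 (SE 0.12) for Mt2 missed the threshold, with adjusted p of 0.0555 and 0.0991. With slide as a block in the fit, Mt1 passed (adjusted p = 0.0444). The 2 genes are close copies of each other, and how far a probe also binds the other transcript was not tested.

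Slc11a1, the phagosomal metal transporter, stood at 2.38, 2.71, 2.50 and 2.33 with IGF1 and at 2.91, 3.09, 3.25 and 2.67 with vehicle at 24 h. The highest IGF1 array reached just past the lowest vehicle array. The difference of -0.50 (SE 0.19) was not called (adjusted p = 0.0804), although it was negative on all 4 slides and passed with slide as a block (adjusted p = 0.0409). It was -0.30 at 48 h and 0.31 at 168 h, the same order of signs as in Hmox1. The change between 24 and 168 h, 0.81 (SE 0.27), missed the threshold (adjusted p = 0.0580).

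The storage, uptake and export genes were not called between treatments at any time. Fth1 had 8.48, 8.43, 8.38 and 8.39 with IGF1 and 8.35, 8.17, 8.26 and 8.32 with vehicle at 24 h, a difference of 0.14 (SE 0.06, adjusted p = 0.127). At 48 h it had 8.14, 8.13, 8.07 and 8.07 with IGF1 and 8.26, 8.20, 8.37 and 8.33 with vehicle, a difference of -0.18 (SE 0.06, adjusted p = 0.417). The arrays did not overlap at either time and the sign was opposite, but the F-test over times was not passed (adjusted p = 0.0697). With quantile normalization both differences nearly vanished (0.03 and -0.004), and the F-test gave an adjusted p of 0.960. For Slc40a1 the differences were 0.34, -0.06 and 0.07 at 24, 48 and 168 h, with 95% intervals of -0.14 to 0.82, -0.53 to 0.42 and -0.41 to 0.55. For Tfrc they were -0.18, 0.22 and 0.44, with intervals of -0.89 to 0.53, -0.49 to 0.93 and -0.27 to 1.15. The groups overlapped for both genes at every time.

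Over reperfusion time more of the 9 genes were called than between treatments, and so were more of all genes. Cp differed on its brightest probe. There its treatment difference at 24 h (0.54) was larger than any between times (at most 0.47 in vehicle hearts and 0.35 in IGF1 hearts). The probes A_52_P597002 and A_55_P2087607 went the other way. Their treatment differences at 24 h (0.82 and 0.84) were smaller than those in vehicle hearts between 24 and 168 h (1.67 and 1.39). In vehicle hearts at 48 h against 24 h, 4 of the 9 were called (1 higher, 3 lower), against 22.7% of all genes. At 168 h against 48 h, 8 were called (2 higher, 6 lower) against 53.2%, and at 168 h against 24 h all 9 were called against 60.2%, with 7 of them lower, against 32.1% of all genes, and 2 higher. In IGF1 hearts the same comparisons called 5 (1 higher, 4 lower) against 37.6%, 5 (1 higher, 4 lower) against 48.8% and 6 against 58.5%, with 5 of them lower, against 33.9%, and 1 higher. At 168 h against 24 h the median difference over the 9 genes was -0.44 in IGF1 hearts and -1.14 in vehicle hearts. Over all genes it was -0.09 in IGF1 hearts and -0.03 in vehicle hearts. Hamp counts among the lower genes in every comparison against 24 h. Its probe was above background on 8 arrays, all but 1 of them at 24 h. Keeping only probes above background on at least 4 arrays thus favoured its fall in advance. Each of these comparisons shares arrays with another, so their counts are not independent. The IGF1 arrays of 48 and 168 h shared no slide, and the vehicle arrays of these times shared 1. Differences between 48 and 168 h are therefore largely also differences between slides.

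**Figure D4:**
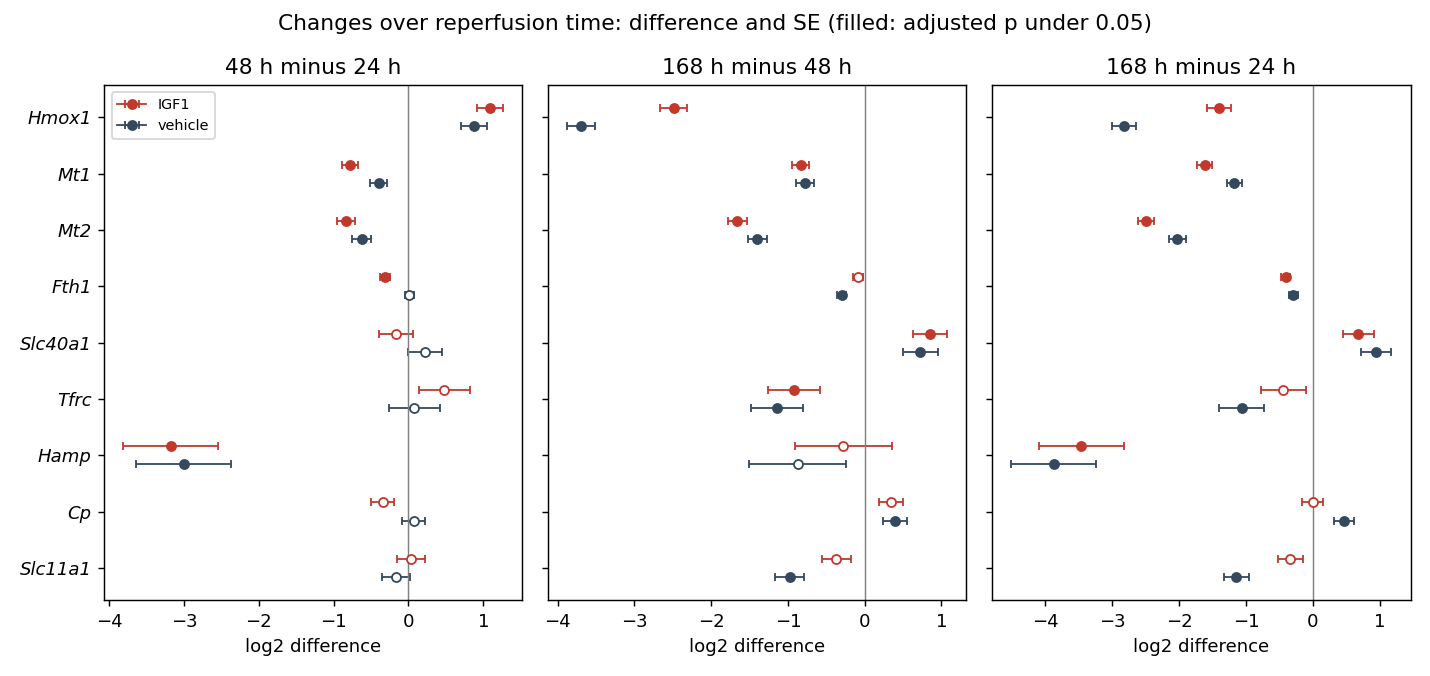
Difference between 2 reperfusion times in log2 units, the later minus the earlier, for each gene (down the page), IGF1 above vehicle, with SE. Filled points passed an adjusted p of 0.05. Hmox1 rose at 48 h and then fell in both treatments, and Slc40a1 is the gene that rose by 168 h in both.

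Hmox1 rose at 48 h in both treatments and then fell to its lowest level. At 48 h against 24 h it was 2.13-fold higher in IGF1 hearts (1.09, SE 0.18, adjusted p = 0.000108) and 1.83-fold higher in vehicle hearts (0.88, SE 0.18, adjusted p = 0.00177). At 168 h against 48 h it was 5.62-fold lower in IGF1 hearts and 13.0-fold lower in vehicle hearts (-2.49 and -3.70, SE 0.18 each). No slide held IGF1 arrays of both times, and the 1 slide with vehicle arrays of both gave -3.39. Against 24 h, the fall by 168 h was 2.64-fold in IGF1 hearts and 7.06-fold in vehicle hearts. The test of the difference between these 2 falls is the one given above, 1.42 with an adjusted p of 0.00336. The genes whose levels followed Hmox1 most closely over the 24 arrays were Sec61g (r = 0.980), C5ar1, a complement receptor of myeloid cells (r = 0.979), and Ccl7, a monocyte chemokine (r = 0.974).

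The metallothionein genes were highest at 24 h and stepped down at each later time. Mt1 had levels at 168 h of 6.98, 6.87, 6.81 and 6.73 in IGF1 hearts and 7.19, 6.92, 7.03 and 6.75 in vehicle hearts. For Mt2 these levels were 6.0, 5.85, 5.93 and 5.70 in IGF1 hearts and 6.47, 5.85, 6.05 and 5.76 in vehicle hearts. In neither treatment did any 168 h array reach a 24 h array of the same treatment. From 24 to 168 h Mt1 fell 3.07-fold in IGF1 hearts (-1.62, SE 0.11) and 2.26-fold in vehicle hearts (-1.17, SE 0.11). Mt2 fell 5.63-fold in IGF1 hearts (-2.49, SE 0.12) and 4.07-fold in vehicle hearts (-2.03, SE 0.12). The 4 falls had adjusted p of 2.02e-08 or less. The falls did not pass a test of difference between treatments (Mt1 -0.44, adjusted p = 0.0722, and Mt2 -0.47, adjusted p = 0.0840). The closest patterns over the 24 arrays were those of Hspb1, a small heat shock protein gene, for Mt1 (r = 0.968) and of Srp68 for Mt2 (r = 0.976).

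Hamp, whose hepcidin is made mainly in the liver, was detected in the infarct mostly on the first day. Its probe was well above background on 3 of 4 IGF1 arrays and 4 of 4 vehicle arrays at 24 h, on 0 and 1 at 48 h, and on 0 and 0 at 168 h. At 24 h the levels were -4.61, -3.27, -2.57 and -3.21 with IGF1 and -1.36, -3.57, -1.68 and -3.25 with vehicle. These groups overlapped and did not differ by the test (-0.95, SE 0.63, adjusted p = 0.331). At 48 h the IGF1 arrays gave -6.56, -6.33, -7.16 and -6.33, and the vehicle arrays -6.18, -5.99, -5.96 and -3.75, the last being the array above background.

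The weakest signal that counts as above background lay between -5.48 and -3.77, depending on the array, so the later Hamp levels are bounds. For a bound, each array of the dim group took that weakest signal, or the probe's own where higher, and their mean was set against the mean of the bright group. In IGF1 hearts Hamp came out 2.27-fold lower at 48 h than at 24 h and 3.07-fold lower at 168 h than at 24 h. These values are not strict bounds, since replicate 1 at 24 h (-4.61) also lay below its array's weakest signal above background (-4.10). In vehicle hearts Hamp was at least 4.97-fold lower at 168 h than at 24 h. The adjusted p from limma, in that order 0.000610, 8.27e-05 and 2.07e-05, belong to the fitted differences (-3.18, -3.46 and -3.88) and not to these folds. The vehicle means at 48 and 24 h differed by -3.01 (SE 0.63, adjusted p = 0.00207), but with 1 of 4 arrays above background at 48 h this size is not a measured one, and it was -1.03 with normexp background correction and -3.58 without vehicle replicate 4 at 48 h. Of 6 hepatocyte markers 5 (Alb, Apoa1, Ttr, Fga and Fgb) were not above background on enough arrays to be tested, and Serpina1a was well above background on 2 of 4 IGF1 arrays and 0 of 4 vehicle arrays at 24 h, 3 and 0 at 48 h, and 2 and 2 at 168 h. The part of liver RNA in the Hamp levels was not tested.

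Slc40a1, the iron exporter, rose by 168 h in both treatments. Levels of Slc40a1 at 168 h were 1.76, 1.32, 1.23 and 1.09 in IGF1 hearts and 1.52, 1.31, 0.99 and 1.30 in vehicle hearts. At 24 h they were 1.28, 0.76, 0.67 and -0.03 in IGF1 hearts and 0.40, 0.41, 0.47 and 0.04 in vehicle hearts. The vehicle times did not overlap, and the level was 1.93-fold higher at 168 h (0.95, SE 0.23, adjusted p = 0.00115). The IGF1 times overlapped through 1 array at 24 h, with a 1.60-fold higher level at 168 h (0.68, SE 0.23, adjusted p = 0.0140). That call was lost without IGF1 replicate 4 at 24 h (adjusted p = 0.0763) or replicate 1 at 168 h (adjusted p = 0.0604).

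Tfrc, the receptor for transferrin-bound iron, fell after 48 h. At 168 h its levels were -0.06, 0.51, 0.79 and 0.77 in IGF1 hearts and -1.37, 0.16, 0.91 and 0.54 in vehicle hearts. At 48 h they were 0.89, 1.59, 1.55 and 1.67 in IGF1 hearts and 1.26, 0.92, 1.07 and 1.55 in vehicle hearts. The fall was 1.89-fold in IGF1 hearts (-0.92, SE 0.34, adjusted p = 0.0288) and 2.20-fold in vehicle hearts (-1.14, SE 0.34, adjusted p = 0.00751). The vehicle difference was -0.66 without vehicle replicate 1 at 168 h, the array at -1.37, still called (adjusted p = 0.0279), and the vehicle call was lost in a fit of only the arrays compared (adjusted p = 0.0653). The IGF1 call was lost without replicate 1 at 168 h (adjusted p = 0.105) or without any of replicates 2 to 4 at 48 h. It was also lost with slide as a fixed block in the fit (adjusted p = 0.1185). Its other probe, A_65_P06446, gave -1.09 in IGF1 hearts and -1.24 in vehicle hearts for the same change, both called, as were 46.5% of probes in IGF1 hearts and 50.7% in vehicle hearts.

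Fth1, the ferritin heavy chain, was lower at the last time. At 168 h against 24 h it was lower by 0.41 in IGF1 hearts and by 0.29 in vehicle hearts on the log2 scale (-0.41 and -0.29, SE 0.06 each), and both were called. With quantile normalization these differences were -0.13 and -0.12 and were not called (adjusted p = 0.104 and 0.114), nor was its fall at 48 h in IGF1 hearts (-0.32, against -0.02 with quantile normalization). The call of Fth1 over time thus depends on how arrays are scaled to each other.

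Slc11a1 fell in vehicle hearts at 168 h, to 2.32, 1.52, 1.60 and 1.90, against 2.91, 3.09, 3.25 and 2.67 at 24 h. The fall was 2.21-fold (-1.14, SE 0.19, adjusted p = 2.93e-05). In IGF1 hearts the levels were 2.00, 2.64, 2.03 and 1.92 at 168 h, against 2.38, 2.71, 2.50 and 2.33 at 24 h, and the difference of -0.33 (SE 0.19) was not called (adjusted p = 0.142). It was called without IGF1 replicate 2 at 168 h, the array at 2.64 (-0.50, adjusted p = 0.0291). The genes closest to Slc11a1 over the 24 arrays were Naip2 (r = 0.970), Was (r = 0.968) and Cln3 (r = 0.967), and with Hmox1 its r was 0.804. Neutrophil markers, which mark another phagocyte that expresses Slc11a1, fell over the same time, with a mean level at 168 h of -1.71 to 0.06 in IGF1 hearts and -2.33 to 0.99 in vehicle hearts, against 3.35 to 4.16 and 3.12 to 3.93 at 24 h. Of 7 measured neutrophil markers 6 were called lower in IGF1 hearts and 5 in vehicle hearts, and 0 higher in either. Inflammatory monocyte markers, 5 in all, had 4 called lower and 1 higher in IGF1 hearts, and 3 lower and 0 higher in vehicle hearts. Of 11 macrophage markers, 7 were called higher and 1 lower in IGF1 hearts between 24 and 168 h. In vehicle hearts 5 were called higher and 4 lower. Of all genes 58.5% were called in IGF1 hearts and 60.2% in vehicle hearts. The part of these cell types in the Slc11a1 change was not tested.

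Other genes of heme, iron and zinc handling were taken from lists of 80 genes, of which 76 were measured. At 24 h IGF1 hearts had 9 of them higher and 3 lower than vehicle hearts, 12 calls in 76 genes beside 16% of all genes, and at 48 and 168 h limma called 0. The median difference at 24 h was 0.08, against 0.01 over all genes. The share called was thus near that of all genes, and the counts of the single lists below describe their members only.

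In iron uptake, 2 of 11 genes were called. Scara5, a receptor for ferritin, was called higher with IGF1 (adjusted p = 0.00248), with 4 of 4 IGF1 arrays and 1 of 4 vehicle arrays above background, so its fitted difference of 2.19 rests on vehicle values mostly below detection. Lcn2, lipocalin 2, which binds iron-loaded siderophores, was 2.80-fold higher (1.49, SE 0.40, adjusted p = 0.0168). Among 9 measured genes of iron export and hepcidin control, Hjv (hemojuvelin, the co-receptor that drives hepcidin in liver) was higher by 1.02 (adjusted p = 0.0151) and Hfe by 0.50 (adjusted p = 0.0393). Bmp2, a ligand upstream of hepcidin, was lower by the test (-0.54, adjusted p = 0.0126).

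Of 9 genes for mitochondrial iron and iron-sulfur clusters 2 were higher with IGF1 at 24 h and 0 lower. Nfs1, the cysteine desulfurase of cluster assembly, differed by 0.40 and Cisd1 (mitoNEET) by 0.41. Fech, which puts iron into heme, was the 1 of 9 heme synthesis genes called (0.44, adjusted p = 0.0176). Flvcr1, a heme exporter, was the 1 of 12 genes of heme uptake and breakdown called (-0.39, adjusted p = 0.0230). Slc39a6, a zinc importer, was the 1 of 10 zinc genes called (-0.62, adjusted p = 0.00625).

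Among 10 genes of Nrf2 and Bach1, the factors that switch Hmox1 on and off, Nqo1 was 2.07-fold higher with IGF1 at 24 h (1.05, SE 0.21, adjusted p = 0.00321) and Keap1 was higher by 0.24 (adjusted p = 0.0113). The other 8, among them Gclm (0.27), Txnrd1 (-0.12) and Srxn1 (-0.09), were not called. Nqo1, a classical Nrf2 target, was thus called higher where Hmox1 was called lower. At this time 3 of 8 cardiomyocyte markers were also called higher with IGF1 and 0 lower, and the part of cell makeup in these calls was not tested.

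**Figure D5:**
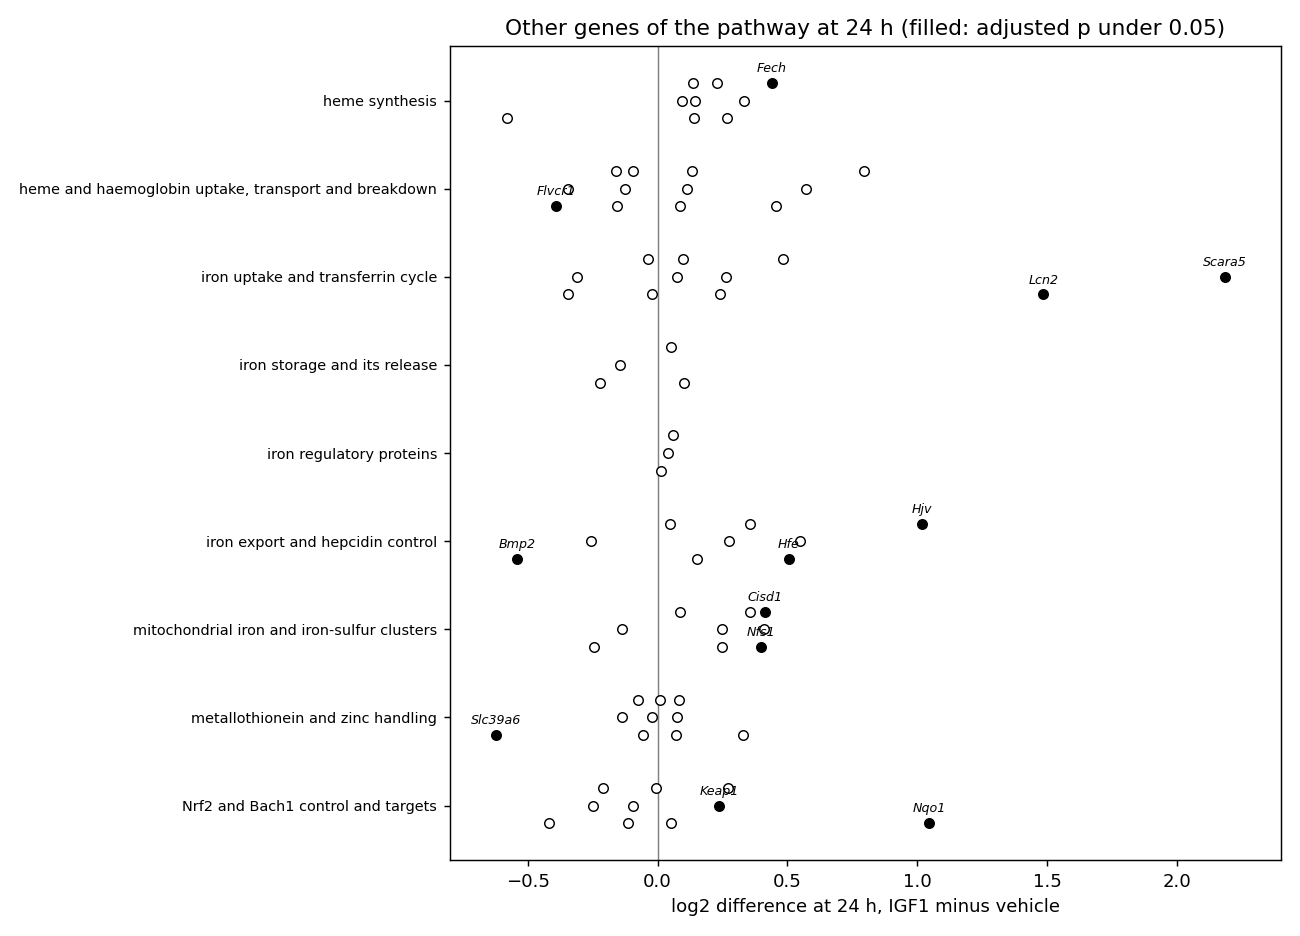
Difference IGF1 minus vehicle at 24 h in log2 units for 76 other genes of heme, iron and zinc handling, 1 point per gene, grouped by list down the page. Filled and named points passed an adjusted p of 0.05. The points farthest right are Scara5 (2.19, with 1 of 4 vehicle arrays above background) and Lcn2 (1.49).

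Between 24 and 168 h, 13 of the 76 genes were called higher and 34 lower in IGF1 hearts, and 20 higher and 34 lower in vehicle hearts. Of all genes 58.5% were called and 33.9% were lower in IGF1 hearts, and 60.2% were called and 32.1% were lower in vehicle hearts, the background for each list count here. Of the 10 Nrf2 and Bach1 genes 8 fell in IGF1 hearts and 7 in vehicle hearts. Srxn1 differed by -1.24 in IGF1 hearts and -1.46 in vehicle hearts, and Txnrd1 by -1.51 in IGF1 hearts and -1.74 in vehicle hearts. Nqo1 rose in vehicle hearts (1.11, adjusted p = 9.29e-05) and was not called in IGF1 hearts (-0.12). By limma the Nqo1 change in IGF1 hearts minus that in vehicle hearts was -1.24 (adjusted p = 0.0135), a test that 11.1% of all genes passed. Of the 10 zinc genes 6 fell in IGF1 hearts and 7 in vehicle hearts, including Mtf1, which encodes the metal-sensing factor named above (-0.63 and -0.55), and Slc39a14, an importer of zinc and iron (-1.38 in each).

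The iron uptake list was mixed. Lcn2 fell by 6.70 in IGF1 hearts and by 4.69 in vehicle hearts on the log2 scale. Trf, transferrin, rose by 1.34 in IGF1 hearts and 1.44 in vehicle hearts, and Slc22a17, a receptor of lipocalin 2, rose by 1.69 and 1.85. In the export list Heph, a ferroxidase like Cp, rose by 1.62 in IGF1 hearts and 1.73 in vehicle hearts, beside the rise of Slc40a1. Of 9 mitochondrial iron genes 6 fell in IGF1 hearts and 3 in vehicle hearts, and 0 rose in either. Over the same time 5 of 6 fibroblast markers rose in each treatment and 0 fell, and their part in these changes was not tested.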

How the data were processed

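Total RNA of 24 samples was labelled with Cy3 and hybridised to SurePrint G3 Mouse 8x60K arrays of Agilent, per the labels. The deposited scanner output holds intensity values, which per the file headers came from Feature Extraction (version 12.0.3.2) and were background-corrected within the array. The authors also deposited a value table of log2 values for 33957 probes, which matched the levels used here within 0.00258 after centring each probe, and which served as an alternative.

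Control spots and outlier spots (53 to 130 of 59305) were left out, log2 signals were averaged per probe, and the array's 75th percentile (signal 372 to 622) was subtracted. Probes well above background on at least 4 arrays were kept, and the brightest stood for its gene. RefSeq accessions gave 33767 of 56605 probes 1 symbol. The fit used limma (version 3.58.1, R 4.3.3) with 6 group means, two-sided tests and 18 residual degrees of freedom. With 4 arrays per group, their number limits the precision. The procedure was tested on simulated data. The members and lists were chosen with earlier results of these data known. One gene of the mitochondrial iron list is not reported here. Named are the 9 members, up to 4 genes of a list by smallest p, and up to 3 genes with the most similar pattern. The uncalled Nrf2 and Bach1 genes given at 24 h exceed that limit and were not all picked by smallest p.

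Same-numbered samples of IGF1 and vehicle at 168 h deviated together (correlation 0.19 to 0.50 over 4 pairs), the labels naming no shared animal or day. Each of these 168 h pairs shared a slide, and 4 of 4 IGF1 samples correlated best with the vehicle sample of their own number. Same-numbered vehicle samples of 48 and 24 h correlated at 0.05 to 0.38, again with 4 of 4 best with their own number. The reported fit used no pairing, and a block by replicate number was fitted only as an alternative.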

Additional observations from a re-analysis of the deposited data

Results flagged for a closer look

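Of 54 sets of 4 arrays (9 genes in 6 groups), 4 held an array far from the other 3, by a limit that chance passes in about 1 set in 20. Tfrc stood at 0.893 on IGF1 replicate 1 at 48 h, against 1.55 to 1.67 on the others. Hamp stood at -3.75 on vehicle replicate 4 at 48 h, against -6.18 to -5.96, and at -4.32 on vehicle replicate 3 at 168 h, against -7.17 to -6.92. The last value lies below the weakest signal above background on its own array, -4.12, and Hamp was above background on 0 of the 4 arrays of that group. Slc11a1 stood at 2.64 on IGF1 replicate 2 at 168 h, against 1.92 to 2.03.

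The IGF1 difference in Hmox1 differed between times, by 1.42 (168 h minus 24 h). Its values are those given above.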

How the results depend on the processing

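The number of the 9 genes called between IGF1 and vehicle at 24 h was 2, and became 4 with slide as a fixed block and 4 with slide as a random block. Both added Mt1 and Slc11a1, while the calls among all 15875 genes rose from 2542 to 3436 and 3305. When single arrays were left out, the number of the 9 ranged from 1 to 4. It was 1 without IGF1 or vehicle replicate 1 or 2 at 24 h, where Cp was lost and 1203 to 2176 of all genes were called. It was 4 without vehicle replicate 1 at 168 h, where Mt1 and Mt2 were added and 2743 of all genes were called. The F-test of the IGF1 difference over times called 1 gene, with 889 of all genes. It called 2 with the mean of a gene's probes (Cp added, 783 of all genes), with slide as a random block (Fth1, 1535) or with array weights (Slc11a1, 1840), and 1 to 2 without single arrays. The cause was not tested. The counts of the other 8 comparisons stayed within 1.5 times under the 11 alternatives and 24 left-out arrays (8 genes in vehicle hearts at 168 h against 48 h became 6 at the lowest), and 0 results reversed. Of 90 results of single genes 66 kept their call under every alternative. With the replicate block the counts at 24, 48 and 168 h were 2, 0 and 0 genes. Same-numbered samples correlated at -0.05 to 0.13 at 24 h and at -0.005 to 0.11 at 48 h. These low values showed no clear pairing by number, though 3 of 4 IGF1 samples at 48 h, against 1 at 24 h, correlated best with their own number. Same-numbered samples shared a slide at 24 and 168 h, and replicates 1 to 3 did at 48 h.

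The background moved more. At 24 h 2542 of all genes were called, 947 with only the arrays compared, 3436 at most, and 1203 to 2743 without single arrays, the lowest without IGF1 replicate 1 at 24 h, and 1319 without vehicle replicate 2 at 24 h. At 48 h it was 2, with a range of 0 to 56, and at 168 h 0, with a range of 0 to 8, or 0 to 10 without single arrays. The F-test called 889 genes, with a range of 406 to 1840, or 342 to 1418 without single arrays. Hamp at 48 and 168 h lies at the limit of detection.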
